A study of Mus musculus with 19 samples.

Results

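The comparison described here is between splenic germinal centre B cells labelled knockout for Pik3cg and those labelled wild type. Its members were chosen by sample title: all 7 libraries titled as spleen germinal centre cells, 4 labelled Pik3cg Knockout and 3 labelled Wild type, out of 19 libraries in the series. By the series design, mice (4 knockout and 3 wild-type) received sheep red blood cells by intraperitoneal injection, a particulate antigen that drives a T cell dependent response, and spleens were taken at day 28. Both groups share the immunization, the day, the tissue and the sort on CD95 and GL7, a protein and a glycan found on the surface of germinal centre B cells. The remaining 12 libraries hold naive B cells and antibody-secreting cells. In the files of these other cell types, a header row reads HET above columns whose samples are labelled wild type. The germinal centre file has no such row and names its columns with W or KO, so the genotype of the controls is given here only as labelled. The labels do not say which part of Pik3cg was deleted, whether the deletion was confined to B cells, or whether each library came from 1 mouse. The p-values therefore measure the spread between these libraries, which may be partly technical. Of 17939 genes listed in the table, 8522 had a mean of at least 10 CPM (counts per 1e+06 assigned reads) over the 7 libraries and were tested.

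A germinal centre forms in a follicle when activated B cells meet cognate T cells. In its dark zone the cells divide and mutate their antibody genes, and in its light zone they bind antigen, present it and receive CD40 and cytokine signals from follicular helper T cells. Cells leave as memory B cells or as plasmablasts. Pik3cg encodes the catalytic subunit p110γ of a phosphoinositide 3-kinase that acts downstream of G protein coupled receptors.

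Pik3cg did not separate the labels. It stood at 66.0, 52.8, 6.55 and 9.04 CPM under the knockout label and at 56.5, 34.3 and 19.4 CPM under the wild-type label (limma log2 fold change −0.60, 95% interval −2.51 to 1.32, adjusted p = 0.696). Because reads are summed over the gene, its level cannot test for a small deletion. Directions below are therefore those of the libraries as labelled.

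Depth, estimated from the smallest step between low values, ran from 16.48 to 19.0 M assigned reads under the knockout label and from 19.6 to 21.6 M under the wild-type label (M, 1e+06 reads). Replicates were closer to each other under the wild-type label: across tested genes, Pearson correlations of log2(CPM + 1) ran from 0.827 to 0.873 there, from 0.681 to 0.743 among the libraries labelled knockout, and from 0.555 to 0.614 between the groups. These correlations are across genes, which are not independent replicates. The first principal component held 42.1% of the variance and put all 4 libraries labelled knockout on one side and all 3 labelled wild type on the other. Among the libraries labelled knockout, 20.9% of tested genes had a highest value over 10 times the lowest, against 6.09% among those labelled wild type.

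The sort marker CD95 was present in both groups. Its gene Fas stood at 254, 249, 285 and 209.9 CPM under the knockout label and at 226, 197 and 217 CPM under the wild-type label (limma log2 fold change 0.22, 95% interval −0.14 to 0.58, adjusted p = 0.410). In naive B cells labelled wild type, deposited in a separate table, Fas averaged 12.9 CPM ± 0.799 (SD, n = 3). Means below are given ± SD over the 4 libraries labelled knockout and then over the 3 labelled wild type. B cell genes were high in every library. Ms4a1, which encodes CD20, stood at 2994, 2608, 3247 and 2868 CPM against 1558, 1225 and 1088 CPM, with no overlap (limma log2 fold change 1.19, SE 0.15, adjusted p = 0.00131). Cd79b, a signalling chain of the B cell receptor, was also higher in the labelled knockout, by 0.70 (SE 0.13, limma adjusted p = 0.00939). Of 14 tested B cell markers, 7 were higher and 2 lower.

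Between the labels, 1162 of 8522 tested genes were called at a limma adjusted p under 0.05, which is 13.6%. Of these, 728 (8.54% of tested genes) were higher and 434 (5.09%) lower in the labelled knockout, and these shares are the background for the counts of list members below. The median log2 fold change was 1.57 among genes called higher and −2.11 among genes called lower, against 0.03 over all tested genes. In 64 of the genes called higher, all 3 libraries labelled wild type were listed at 0. In 22 of those called lower, all 4 labelled knockout were. The total was 732, 603 and 712 without labelled-wild-type replicate 1, 2 or 3, and 432 with knockout replicate 1 and wild-type replicate 3 both left out. The 2 groups did not overlap for 27.4% of tested genes, 15.6% higher and 11.7% lower. Of 91 called genes named in the text, 79 kept their call when every library was left out in turn, where tested. For some of the others, the libraries without which the call was lost are named beside the gene.

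**Figure D1:**
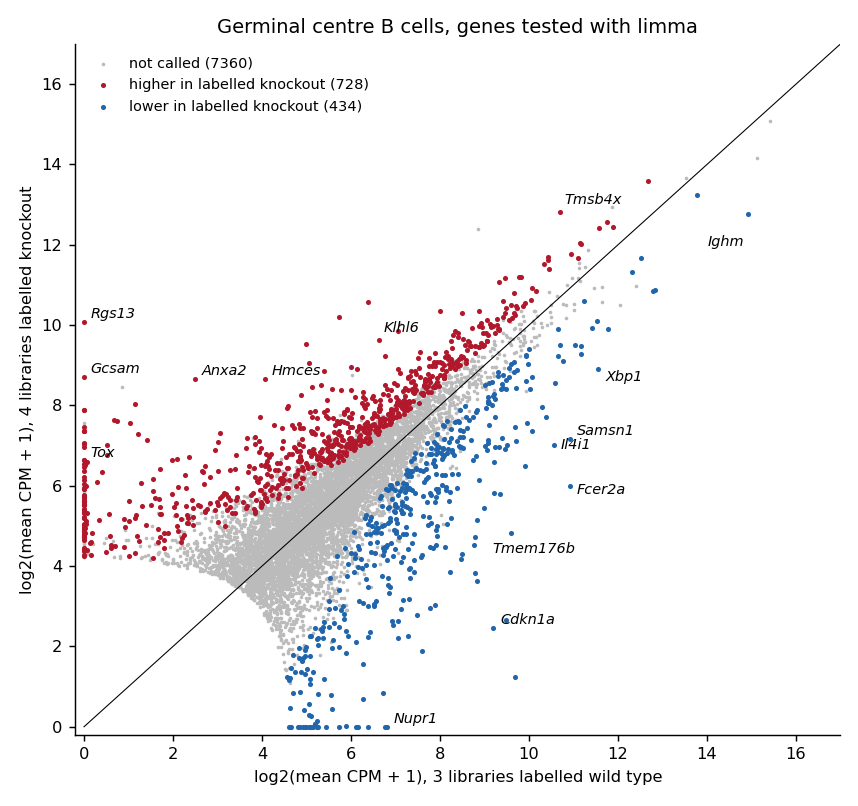
Group means of the 8522 tested genes on a log2(mean CPM + 1) scale, labelled wild type on the x axis and labelled knockout on the y axis, with genes called by limma in red (higher in the labelled knockout) and blue (lower). The column of red points at 0 on the x axis holds genes such as Rgs13, Gcsam and Tox, and the row of blue points at 0 on the y axis holds genes such as Nupr1.

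Transcripts of other cell types differed between the labels and accompany every result below. Of 21 tested T cell markers, 18 were higher in the labelled knockout and none lower, and their median log2 fold change was 5.20, or 6.45 with genes listed at 0 set to a floor of 3 reads per library. The 25 listed markers summed to between 1833 and 3757 CPM under the knockout label and between 115 and 206 CPM under the wild-type label, where 13 of the 25 were listed at 0, Cd3e among them. Cd3e, a chain of the T cell receptor complex, stood at 38.8, 60.8, 40.4 and 38.9 CPM under the knockout label. Cd2, an adhesion molecule of T cells, stood at 292, 678, 452 and 414 CPM against 29.1, 58.8 and 34.6 CPM (limma log2 fold change 3.46, SE 0.32, adjusted p = 0.000391). In the separate table of naive B cells labelled wild type, Cd2 averaged 475 CPM ± 23.1 and Cd3e 3.65 CPM ± 1.30 (SD, n = 3). The level of Cd2 alone therefore does not mark T cells here. Icos and Tox, which mark follicular helper T cells among others, were listed at 0 in each wild-type library and averaged 47.5 CPM ± 11.7 and 133 CPM ± 20.8 (SD, n = 4) in those labelled knockout. In bulk RNA, fewer cells of a type and less RNA per cell cannot be told apart.

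Macrophage transcripts followed the same direction. Of 20 tested monocyte and macrophage markers, 9 were higher and none lower, and their sum ran from 2059 to 6449 CPM under the knockout label and from 676 to 1144 CPM under the wild-type label, with 13 of 24 listed at 0 in the latter. Apoe, the lipid carrier that macrophages secrete, stood at 1869, 1064, 562 and 1244 CPM against 61.1, 63.5 and 31.9 CPM (limma log2 fold change 4.42, SE 0.39, adjusted p = 0.000287). Spic, a transcription factor of red pulp macrophages, averaged 98.2 CPM ± 42.0 against 2.97 CPM ± 3.31 (SD, n = 3). In the separate table of naive B cells labelled wild type, Apoe averaged 713 CPM ± 34.3 and Spic 4.58 CPM ± 6.35 (SD, n = 3). The level of Apoe alone therefore does not mark macrophages here. Erythroid markers were uneven: their sum was 3194 CPM in labelled-knockout replicate 1, 161 to 448 CPM in the other 3 libraries labelled knockout and 174 to 210.7 CPM under the wild-type label. Of 7 tested erythroid markers, 3 were higher and 1, the transferrin receptor gene Tfrc, was lower, named after its value was seen. The higher count was 1 without labelled-knockout replicate 1 and none without any 1 library labelled wild type. Some transcripts pointed the other way without being called. The median log2 fold change was −0.75 over 5 tested dendritic cell markers and −0.64 over 3 tested regulatory T cell markers. In each of these lists 1 was called higher and none lower. Il2ra, of the regulatory T cell list, averaged 19.1 CPM against 132 CPM. Ms4a7, of the macrophage list, averaged 24.3 CPM against 131 CPM. Neither gene overlapped between the labels. The part of these cell types in the results below was not tested, and some genes named below are also expressed by T cells or macrophages.

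**Figure D2:**
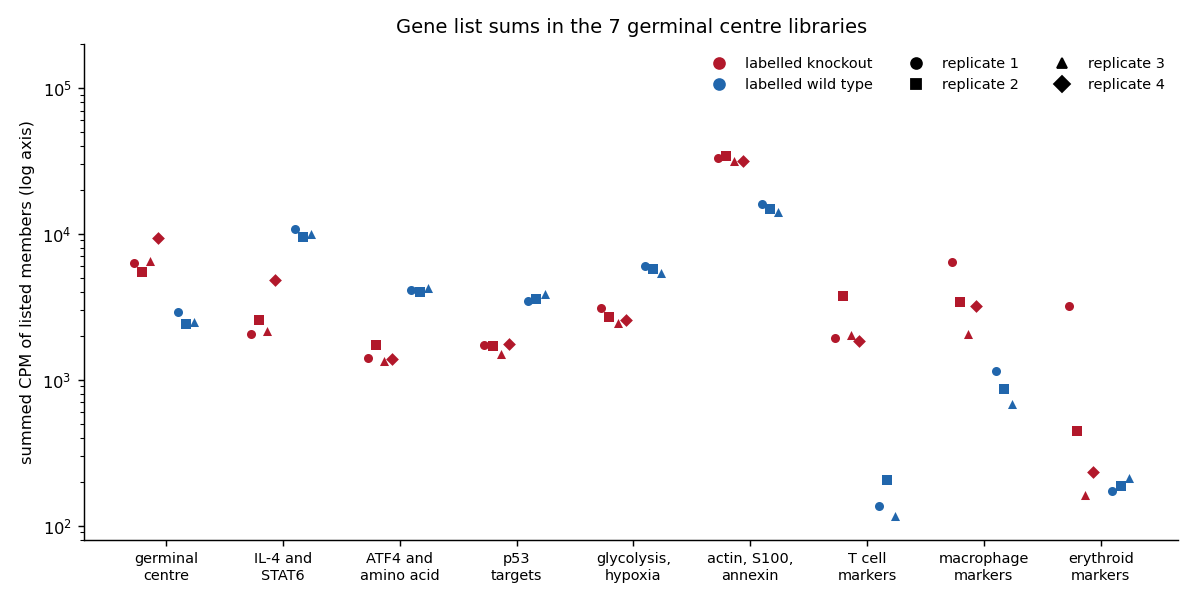
Summed CPM of 9 gene lists in each of the 7 libraries, on a log axis, with colour for the label and symbol shape for the replicate number. The T cell sum lies between 1833 and 3757 CPM in the labelled knockout and at or below 206 CPM under the wild-type label, whereas the IL-4 and STAT6 sum lies at or below 4795 CPM in the labelled knockout and at or above 9520 CPM under the wild-type label.

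Many genes of the germinal centre programme were higher under the knockout label. Of 26 tested members of a germinal centre list, 16 were higher, 1 was lower and 9 were not called, with a median log2 fold change of 1.87, and 14 to 16 were higher when single libraries were left out. With knockout replicate 1 and wild-type replicate 3 both left out, 10 were higher.

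Nuggc, a nuclear GTPase made in germinal centre B cells, stood at 211.9, 173, 169.9 and 203 CPM in the labelled knockout and was listed at 0 in labelled-wild-type replicates 1 and 3, with 3.14 CPM in replicate 2. Klhl6, a ubiquitin ligase adaptor needed for germinal centres to form, stood at 808, 591, 845 and 899.95 CPM against 65.4, 125 and 103 CPM (limma log2 fold change 3.03, SE 0.24, adjusted p = 0.000182). Mef2b, a transcription factor that acts on the Bcl6 gene, was higher by 2.88 (SE 0.52, limma adjusted p = 0.0072), with 92.7 to 301 CPM against 9.93 to 37.8 CPM. The groups did not overlap for any of these. The member called lower was Pou2af1, a coactivator of octamer factors in B cells, at 368 CPM ± 74.0 against 674 CPM ± 36.6 (SD, n = 3). The list also holds Cd38 and Ccr6, both called higher, which are known to be high on naive and memory B cells and low in germinal centres. Cd38 averaged 194 CPM ± 54.9 against 53.6 CPM ± 9.75.

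Repair factors of somatic hypermutation were partly included. Of 18 tested genes of hypermutation and switch repair, 4 were higher and none lower, and the list's median was 0.18, beside 0.03 over all tested genes. Hmces, a protein that shields abasic sites in single-stranded DNA, stood at 500.3, 245, 445 and 416 CPM against 11.0, 24.0 and 12.6 CPM (limma log2 fold change 4.61, SE 0.34, adjusted p = 0.000106). Mbd4, a glycosylase that removes uracil and thymine from mismatches, stood at 216, 176, 277.5 and 247 CPM against 46.4, 27.5 and 49.99 CPM (limma log2 fold change 2.47, SE 0.27, adjusted p = 0.000772).

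Most cell division genes were not called. Of 44 tested G1/S genes 5 were higher (11.4%), and of 51 G2/M genes 5 were higher (9.80%), with none lower in either list and medians of −0.06 and 0.25. The G1/S count was 3, 8, 2 and 3 without labelled-knockout replicate 1 or 2 or labelled-wild-type replicate 1 or 2, and the G2/M count 3 without labelled-wild-type replicate 1 or 2. Top2a, the topoisomerase of dividing cells, was among those not called. It stood at 588 CPM ± 118 against 506 CPM ± 32.2 (SD, n = 3; limma log2 fold change 0.20, 95% interval −0.19 to 0.58, adjusted p = 0.499). A dark zone list that shares some G2/M genes had 6 of 22 tested higher (27.3%) and none lower. It summed to 3105 to 4456 CPM under the knockout label and to 1713 to 1983 CPM under the wild-type label. Of 56 ribosomal protein genes, 1 was called in each direction.

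Some genes that IL-4 and CD40 signals induce in B cells were lower. Of 21 tested members of an IL-4 and STAT6 list, 10 were lower, 3 higher and 8 not called in the labelled knockout, with a median log2 fold change of −3.02. The list summed to 2051, 2548, 2162 and 4795 CPM under the knockout label and to 10784, 9520 and 9943 CPM under the wild-type label. Which cells the members called lower or higher came from was not tested. The 3 members called higher were Cd86, Gatm and Plaur. They averaged 220, 148 and 51.0 CPM under the knockout label and 56.7, 13.4 and 2.04 CPM under the wild-type label. In the separate table of naive B cells labelled wild type they averaged 77.3, 6.05 and 147 CPM (n = 3). Fcer2a encodes CD23, the low-affinity IgE receptor (43.0, 82.1, 60.3 and 63.8 CPM against 2439, 1811 and 1525 CPM), and its limma log2 fold change was −4.94 (SE 0.24, adjusted p = 1.25e-05). Il4i1, a secreted amino acid oxidase, stood at 225, 42.8, 107 and 138 CPM against 1751, 1449 and 1341 CPM (limma log2 fold change −3.77, SE 0.46, adjusted p = 0.0013). Each library labelled wild type was above every library labelled knockout for both genes. A STAT6-type element, read as TTC, any 4 bases and GAA and searched in the same way as the elements below, was in the windows of 2 of 16 matched members (12.5%), of which Fcer2a was called, beside 10 of all 16, and in 6.76% of all promoters and 5.68% of those of tested genes.

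Ccl22, a chemokine that draws T cells bearing CCR4, was listed at 0 in labelled-knockout replicates 2, 3 and 4, stood at 10.9 CPM in replicate 1, and at 305, 187 and 83.4 CPM under the wild-type label. Cish, a feedback inhibitor of STAT5 signalling, was listed at 0 in all 4 libraries labelled knockout and stood at 80.6, 43.0 and 89.0 CPM under the wild-type label. Its relative Socs2 stood at 11.4, 14.1, 1.27 and 2.00 CPM against 259.2, 247 and 197 CPM (limma log2 fold change −5.29, SE 0.71, adjusted p = 0.00189). The receptor gene Il9r moved alike, at 20.5 CPM ± 11.1 against 126 CPM ± 6.49. Among 34 tested cytokine receptor and signalling genes as a whole, 5 were lower and 3 higher, with 9 lower without labelled-knockout replicate 2 and 3 without any 1 library labelled wild type.

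In a list of the CD40 and NF-κB response, 9 of 28 tested genes were lower, 1 higher and 18 not called in the labelled knockout, with a median of −0.98. Without labelled-wild-type replicate 1 or replicate 2 the lower count was 5. Ebi3, a subunit of the cytokines IL-27 and IL-35, stood at 33.9, 15.0, 11.5 and 40.8 CPM against 583, 453 and 281.1 CPM (limma log2 fold change −4.18, SE 0.46, adjusted p = 0.000837). Nfkbia, the inhibitor that NF-κB itself induces, averaged 266 CPM ± 61.8 against 548 CPM ± 81.6 (SD, n = 3). Cflar, which blocks caspase-8, averaged 47.6 CPM ± 24.9 against 234.1 CPM ± 63.5, again with no overlap. An NF-κB site, read as GGGA, any base, TT, any base and CC, was in the windows of 5 of 24 matched members (20.8%), against 1.13% of all promoters and 1.38% of those of tested genes. Of these 5 genes Nfkb2 and Nfkbia were called lower and Tnip1 higher, named for their matches after their values were seen, beside 9 called of all 24. Tnip1 averaged 54.2 CPM ± 17.5 under the knockout label against 19.8 CPM ± 4.12 under the wild-type label, and Nfkb2 13.5 CPM ± 5.89 against 66.3 CPM ± 9.76. A light zone list that shares some of these genes had 9 of 26 lower and 3 higher. In it, the adhesion receptor Cd44 stood at 241, 180.3, 164 and 119.6 CPM against 924, 822 and 733 CPM, and the cyclin Ccnd2 at 241, 399, 169.8 and 176 CPM against 1304, 1195 and 1286 CPM.

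**Figure D3:**
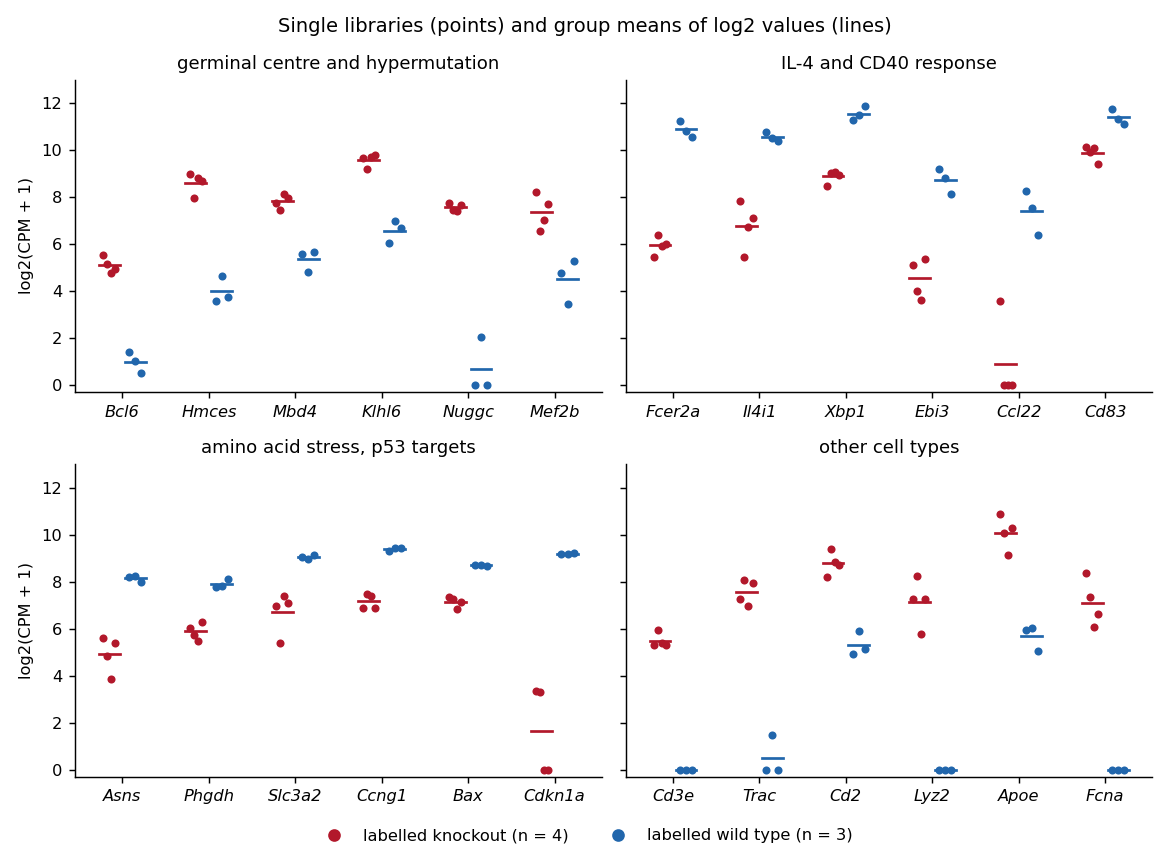
Values of 24 genes in single libraries on a log2(CPM + 1) scale, red for the 4 libraries labelled knockout and blue for the 3 labelled wild type, with lines at group means. Hmces, Mbd4 and Klhl6 lie higher in every library labelled knockout than in any labelled wild type, and Fcer2a, Il4i1, Asns and Ccng1 lie lower, while Cd3e, Lyz2 and Fcna are at 0 in all 3 libraries labelled wild type.

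Among the genes called lower with the smallest p-values were some without a place in these lists. Tmem176b, a small membrane protein, stood at 23.3, 29.3, 23.9 and 32.7 CPM against 778, 816 and 709 CPM (limma log2 fold change −4.77, SE 0.20, adjusted p = 6.09e-06). Samsn1, an adaptor that restrains B cell activation, stood at 104, 137, 190.1 and 138 CPM against 2383, 1920.5 and 1553 CPM (limma log2 fold change −3.78, SE 0.22, adjusted p = 3.33e-05). Grap, an adaptor of the GRB2 family, stood at 173, 202, 181 and 189.6 CPM against 1147, 883 and 955 CPM. Among the largest fold changes, the inhibitory receptor Lilrb4a averaged 13.2 CPM ± 18.1 against 443 CPM ± 93.3 (SD, n = 3), the cathepsin inhibitor Cst7 11.4 CPM ± 10.9 against 451 CPM ± 105, and the zinc transporter Slc30a4 was listed at 0 in all libraries labelled knockout and averaged 82.1 CPM ± 5.46 under the wild-type label.

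Many amino acid stress genes were lower in the labelled knockout. ATF4 is a transcription factor that is translated when amino acids run short or proteins misfold, and it switches on genes of amino acid synthesis, transport and tRNA charging. Of 26 tested members of an ATF4 and amino acid list, 14 were lower and none higher, with a median log2 fold change of −2.08 and a sum of 1334 to 1729 CPM against 3996 to 4269 CPM. The lower count was 8, 9 and 7 without labelled-wild-type replicate 1, 2 or 3, and 4 with knockout replicate 1 and wild-type replicate 3 both left out. A canonical ATF4-type element has the letters TGATGNAA. On either strand it was found within 250 bases before the start of 6 of the 21 list members matched in RefSeq's promoter table (28.6%), against 3.91% of all 27025 promoters and 2.34% of 6321 promoters of tested genes. Of the 6 genes, Asns, Chac1 and Nupr1 were called, beside 11 of all 21 matched members, and their windows (GRCm38.p6, 5′ to 3′ on the gene's strand, with the match in capitals) are shown because the called genes' promoters hold the same element in different orientations and at different distances from the start. Chac1 is named for its match, after its values were seen.
Asns (chr6:7693210-7693268, minus strand): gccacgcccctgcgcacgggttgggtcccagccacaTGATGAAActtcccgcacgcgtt
Chac1 (chr2:119351013-119351092, plus strand): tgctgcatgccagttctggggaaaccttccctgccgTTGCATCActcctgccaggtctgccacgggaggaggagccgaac
Nupr1 (chr7:126625537-126625616, minus strand): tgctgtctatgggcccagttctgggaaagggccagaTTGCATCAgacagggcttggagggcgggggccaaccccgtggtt
The element ends 15 bases before the start of Asns, 185 before Chac1 and 102 before Nupr1. A match is a description of these letters and does not show that a factor bound there.

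Asns, the enzyme that makes asparagine, stood at 47.7, 27.3, 13.6 and 40.8 CPM under the knockout label and at 291, 304 and 252 CPM under the wild-type label (limma log2 fold change −3.22, SE 0.40, adjusted p = 0.00136). Chac1, which degrades glutathione, was listed at 0 in all 4 libraries labelled knockout and stood at 39.1, 25.3 and 26.7 CPM under the wild-type label, and it lost its call without labelled-wild-type replicate 2 or 3 and fell below the level filter without replicate 1. Phgdh, the first enzyme of serine synthesis, stood at 65.2, 51.9, 43.3 and 77.5 CPM against 215, 225 and 278 CPM (limma log2 fold change −2.02, SE 0.25, adjusted p = 0.00131). These enzymes did not overlap between the labels. Slc3a2, the shared heavy chain of large amino acid transporters, averaged 117 CPM ± 53.9 against 531 CPM ± 26.2 (SD, n = 3), and Sars, which charges the serine tRNA, 63.8 CPM ± 26.0 against 263 CPM ± 33.9. Eif4ebp1, a repressor of translation that mTOR inactivates, stood at 22.8, 58.6, 15.2 and 26.8 CPM against 250.4, 254 and 229.8 CPM.

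Some targets of p53, glycolytic enzymes and death regulators were lower as well. Of 25 tested p53 targets, 8 were lower and 1 higher, with 3 lower without labelled-wild-type replicate 1 and 4 without replicate 2 or replicate 3. Ccng1, cyclin G1, stood at 117, 176, 169 and 116 CPM against 636, 688 and 684 CPM (limma log2 fold change −2.23, SE 0.19, adjusted p = 0.000246). Bax, which permeabilizes mitochondria in apoptosis, stood at 162, 151, 112 and 139 CPM against 421, 423 and 400.2 CPM. The member called higher was Sesn1, a sestrin that p53 and FOXO factors induce, at 85.7 CPM ± 24.8 against 22.7 CPM ± 8.73. In the BCL2 family list, 5 of 19 were lower and none higher, with 2 lower without labelled-wild-type replicate 1 or 2 and 3 without replicate 3. Bcl2l1, which encodes the survival protein BCL-XL, averaged 3.48 CPM ± 4.77 against 47.0 CPM ± 5.29, and Bcl2l11, which encodes the killer BIM, 7.38 CPM ± 5.95 against 90.8 CPM ± 37.7. Both lost their call without any 1 library labelled wild type.

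Of 28 tested glycolysis and hypoxia genes, 11 were lower and none higher, with a median of −1.26, and 6, 6 and 7 were lower without labelled-wild-type replicate 1, 2 or 3. Pkm, pyruvate kinase, stood at 520.3, 302, 299 and 539.6 CPM against 1089, 1122 and 984 CPM (limma log2 fold change −1.41, SE 0.24, adjusted p = 0.00512). Of 23 tested antioxidant genes, 5 were lower and none higher, with 3 and 2 lower without labelled-wild-type replicate 1 or 2. An antioxidant response element, TGACNNNGC, was in the windows of 6 of 19 matched members (31.6%), of which Prdx1 was called, beside 5 of all 19, and in 11.5% of all promoters and 14.1% of those of tested genes. Ftl1, the ferritin light chain, averaged 1883 CPM ± 769 against 7266 CPM ± 683 (SD, n = 3), but its split of reads with the listed pseudogene Ftl1-ps1 is uncertain.

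**Figure D4:**
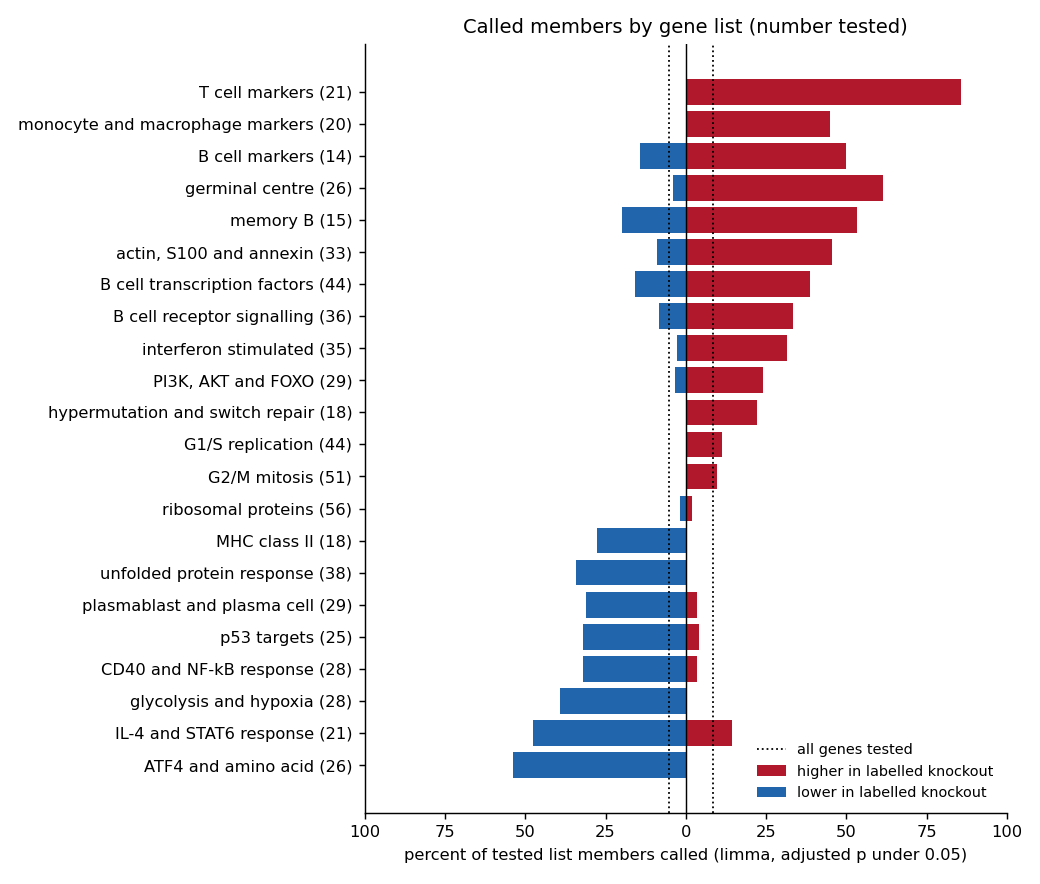
Percent of tested members called higher (red, to the right) and lower (blue, to the left) in the labelled knockout for 22 gene lists, with the number tested in brackets and dotted lines at the shares of all tested genes, 8.54% and 5.09%. The T cell and germinal centre lists reach furthest to the right and the ATF4 and IL-4 lists furthest to the left, while the bars of the G1/S and G2/M lists end near the right dotted line.

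Immunoglobulin classes differed. Ighm, the IgM heavy chain, stood at 5634, 5083, 6415 and 10625 CPM under the knockout label and at 18131, 39048 and 35288 CPM under the wild-type label (limma log2 fold change −2.14, SE 0.32, adjusted p = 0.00291). Ighg2b, the IgG2b heavy chain, had the opposite order at 1001, 1967, 2439 and 745 CPM against 234.5, 4.14 and 6.94 CPM (limma log2 fold change 6.02, SE 1.15, adjusted p = 0.00909). Neither gene overlapped between the labels. Ighe, the IgE heavy chain, was listed at 0 in labelled-knockout replicates 1 and 2, at 7.77 and 18.7 CPM in replicates 3 and 4, and at 184, 116 and 116 CPM under the wild-type label, and it lost its call without any 1 library labelled wild type. Igha, the IgA heavy chain, stood at 249 CPM in labelled-knockout replicate 1, at 7179.9, 6637 and 7591 CPM in the other 3, and at 1034, 38.0 and 318 CPM under the wild-type label. It was not called with all libraries (limma adjusted p = 0.111) and was called without labelled-knockout replicate 1. Ighg1 overlapped, at 499 to 3430.2 CPM against 665 to 1080.4 CPM.

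Plasmablast genes were not uniform. Of 29 tested members, 9 were lower and 1 higher in the labelled knockout, with 5 lower without labelled-wild-type replicate 2. Mzb1, a chaperone of IgM assembly, stood at 529.5, 594, 740.3 and 634 CPM against 1956, 2782 and 2201 CPM (limma log2 fold change −1.88, SE 0.16, adjusted p = 0.000246). Slamf7, a surface receptor of plasma cells, averaged 293 CPM ± 43.5 against 541 CPM ± 34.4. Jchain, which joins IgM and IgA subunits, pointed the other way at 7923 CPM ± 3444 against 3719 CPM ± 1446 (SD, n = 3), was not called (limma adjusted p = 0.189), and was called when labelled-knockout replicate 1 was left out. In the unfolded protein response list, 13 of 38 were lower and none higher, with 8 lower without labelled-knockout replicate 1 or labelled-wild-type replicate 1, 4 without labelled-wild-type replicate 2 and 5 without replicate 3. The chaperone Hspa5 was not called, at 1931 CPM ± 658 against 2797 CPM ± 395, except without labelled-knockout replicate 2.

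Some proximal B cell receptor genes were higher. Of 36 tested, 12 were higher, 3 lower and 21 not called, and 6 were higher with knockout replicate 1 and wild-type replicate 3 both left out. Bank1, a scaffold for kinases at the receptor, stood at 334, 330.2, 428 and 247 CPM against 109, 30.6 and 21.8 CPM (limma log2 fold change 2.94, SE 0.48, adjusted p = 0.00465). Cd22, an inhibitory coreceptor, stood at 313, 286, 293.9 and 217 CPM against 98.8, 73.7 and 103 CPM (limma log2 fold change 1.59, SE 0.20, adjusted p = 0.00153). Cd81, a tetraspanin of the B cell surface, was lower at 601 CPM ± 172 against 1599 CPM ± 21.8 (SD, n = 3). Tnfrsf13c, the BAFF receptor, was higher at 647 CPM ± 71.5 against 186 CPM ± 94.3, and Cd180, a Toll-like receptor homologue of B cells, at 109.7 CPM ± 24.1 against 17.4 CPM ± 4.39.

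In the pathway of the targeted gene, 7 of 29 tested PI3K, AKT and FOXO genes were higher and 1, Eif4ebp1, was lower. The higher count fell to 2 without labelled-wild-type replicate 2, to 3 without labelled-knockout replicate 3, labelled-wild-type replicate 1 or labelled-wild-type replicate 3, and to 4 without labelled-knockout replicate 1. Foxo1, a transcription factor of the dark zone that PI3K signals inactivate, stood at 102, 85.7, 135 and 87.8 CPM against 54.5, 32.4 and 54.3 CPM (limma log2 fold change 1.12, SE 0.29, adjusted p = 0.0349). With single libraries left out, Foxo1 kept its call only without labelled-knockout replicate 2 or 4. Another member called higher, Tcf7, is a T cell transcription factor.

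Of 44 tested B lineage transcription factors, 17 were higher and 7 lower in the labelled knockout, with 4 lower without any 1 library labelled wild type. Ets1, which restrains plasma cell differentiation, stood at 1131, 1418, 1529 and 1114 CPM against 190.2, 282.2 and 293 CPM (limma log2 fold change 2.35, SE 0.19, adjusted p = 0.000198). Zbtb20, a BCL6-related repressor, stood at 273.9, 237, 258.1 and 246.3 CPM against 29.3, 24.1 and 15.8 CPM (limma log2 fold change 3.44, SE 0.25, adjusted p = 9.64e-05). Mef2c, an activator in B cells, was lower at 957 CPM ± 141 against 1612 CPM ± 127. Ets1 and Tcf7 are also T cell genes.

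Cytoskeletal genes were among the most abundant that were higher. Of 33 tested actin, S100 and annexin genes, 15 were higher and 3 lower, and the list summed to 31364 to 34092 CPM against 14066 to 16122 CPM. Tmsb4x, an actin-binding thymosin, stood at 7045, 8466, 7173 and 6082 CPM against 1923, 1497 and 1527 CPM (limma log2 fold change 2.12, SE 0.15, adjusted p = 8.94e-05). Anxa2, a membrane-binding annexin, stood at 384, 394, 486 and 354.2 CPM against 6.34, 2.55 and 5.10 CPM (limma log2 fold change 6.22, SE 0.31, adjusted p = 1.25e-05). Crip1, a LIM domain protein, stood at 447, 607, 575 and 481 CPM against 25.1, 32.7 and 39.5 CPM. All 3 are abundant in T cells or macrophages as well. In the separate table of naive B cells labelled wild type, Tmsb4x averaged 6908 CPM ± 493, Anxa2 5.75 CPM ± 1.40 and Crip1 59.6 CPM ± 8.31 (SD, n = 3). Memory B cell genes were split, with 8 of 15 tested higher and 3 lower, and 5, 5 and 4 higher without labelled-knockout replicate 3 or labelled-wild-type replicate 1 or 2. Nt5e, the ectonucleotidase CD73, stood at 131, 149, 102 and 51.6 CPM and was listed at 0 in 2 libraries labelled wild type, with 1.30 CPM in the third.

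Part of the interferon-stimulated genes were higher. Of 35 tested, 11 were higher and 1 lower, with 7 higher without labelled-wild-type replicate 2 and 5 with knockout replicate 1 and wild-type replicate 3 both left out. Samhd1, which degrades deoxynucleotides, stood at 429, 303, 458 and 467 CPM against 189, 132 and 139 CPM, with no overlap. The interferon-stimulated response element, read as GAAA, any 2 bases and GAAA again, was found on either strand within 250 bases before the start of 11 of 26 matched list members (42.3%), against 3.46% of all 27025 promoters and 3.69% of those of tested genes. Of the 11 genes 4 were called, Ifit1, Ifit3, Isg15 and Trim30a, named for their matches after their values were seen, beside 9 of all 26 matched members. The windows of Ifit1 and Ifit3 (GRCm38.p6, from RefSeq, 5′ to 3′, with matches in capitals) are shown because each holds 2 copies and both genes were at or near 0 under the wild-type label.
Ifit1 (chr19:34640749-34640830, plus strand): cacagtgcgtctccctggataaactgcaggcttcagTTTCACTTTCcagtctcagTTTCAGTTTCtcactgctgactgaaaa
Ifit3 (chr19:34583337-34583418, plus strand): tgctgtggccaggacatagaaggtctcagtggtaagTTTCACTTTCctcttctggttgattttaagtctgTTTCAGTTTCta
Ifit1, which binds foreign RNA, stood at 24.2, 18.8, 16.7 and 85.8 CPM in the labelled knockout and read 0 in all 3 wild-type libraries, and it fell below the level filter without labelled-knockout replicate 4. Ifit3, its partner, stood at 29.5, 31.4, 21.5 and 117 CPM against 6.70 CPM in labelled-wild-type replicate 1 and 0 in replicates 2 and 3, and it lost its call without labelled-wild-type replicate 2 or 3. Labelled-knockout replicate 4 was the highest for both. Trim30a also lost its call without labelled-wild-type replicate 1 or 2, and Isg15 without any library other than labelled-knockout replicate 3.

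Early response genes went both ways. Of 21 tested, 5 were higher and 6 lower, with 2 higher without labelled-knockout replicate 1 and 3 without labelled-knockout replicate 2 or any 1 library labelled wild type. Fos, a subunit of AP-1 that is induced within minutes of stimulation, stood at 49.1, 46.5, 75.9 and 81.7 CPM in the labelled knockout and at 0, 0 and 0.102 CPM under the wild-type label (limma log2 fold change 5.92, SE 0.62, adjusted p = 0.000687). Cd69, an early activation marker, had the opposite order at 109, 194, 115 and 93.1 CPM against 787, 816 and 574 CPM (limma log2 fold change −2.54, SE 0.26, adjusted p = 0.000584). In their own tables, Fos averaged 1503 CPM ± 320 (SD, n = 3) in naive B cells and 1040 CPM ± 306 (SD, n = 3) in spleen antibody-secreting cells, both labelled wild type.

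Called MHC class II genes were all lower, whereas class I and proteasome genes were split, with 3 of 18 tested higher and 3 lower. Of 18 tested MHC class II genes, 5 were lower and none higher, a count that ran from 2 without labelled-wild-type replicate 2 to 8 without labelled-knockout replicate 1, with 3 without labelled-knockout replicate 3 or 4 or labelled-wild-type replicate 1. H2-DMa, which loads peptide, averaged 554 CPM ± 128 against 1741 CPM ± 316 (SD, n = 3). B2m, the light chain of class I, stood at 2297, 3216, 2413 and 2402 CPM against 5359, 5270.1 and 4649 CPM, whereas Psmb8, a subunit of the immunoproteasome, stood at 1202, 1088, 1054 and 1105 CPM against 544, 563 and 481 CPM. Of 13 mitochondrially encoded genes, 8 were higher, and 4 without labelled-wild-type replicate 1 or 2. Their share of all CPM was 3.27% to 3.96% in the labelled knockout and 2.07% to 2.42% under the wild-type label.

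Levels were also set beside those of naive B cells and spleen antibody-secreting cells labelled wild type. These come from separately deposited tables, so the values are descriptions without a test, and header rows of both tables mark the columns labelled wild type as HET. Of 417 shared genes called lower in the labelled knockout, the labelled knockout lay nearer to naive B cells for 73.9%, and of 710 called higher, for 43.2%, beside 49.4% of all 8283 shared tested genes. Set against antibody-secreting cells, the labelled knockout was the nearer for 81.5% of the genes called lower, for 4.08% of those called higher and for 41.8% of all. The mean of antibody-secreting cells lay below both groups for 7153 of the 8283 genes, 547 of the 710 called higher among them. That of naive B cells lay below both for 3958. At such genes the lower group is the nearer by construction. These percentages therefore largely restate the direction of the calls for antibody-secreting cells, and partly for naive B cells. They do not measure likeness of cell state. Ets1 and Bank1 averaged 2796 CPM and 767 CPM in naive B cells, with the labelled knockout between these and the labelled wild type. Fcer2a averaged 1237 CPM there, nearer to the labelled wild type. Some stress and IL-4 type genes of the labelled wild type stood above both references. Cdkn1a averaged 586 CPM under the wild-type label, 0.958 CPM in naive and 2.11 CPM in antibody-secreting cells. Tmem176b averaged 768, 1.93 and 34.98 CPM in the same order, Asns 282.5, 1.56 and 33.9 CPM, and Il4i1 1514, 204 and 3.63 CPM. The margin was smaller for Slc3a2, at 531, 164 and 392 CPM.

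Against antibody-secreting cells, Pearson correlations over the 8283 genes ran from 0.5545 to 0.6041 for the libraries labelled wild type and from 0.4225 to 0.4653 for those labelled knockout. Against naive B cells they ran from 0.5521 to 0.5722 and from 0.5225 to 0.5891. The points share each library's depth and the order of gene abundance, and no p is given. Xbp1 and Ighm of the labelled wild type were near the level of antibody-secreting cells, which averaged 4389 CPM ± 502 and 28510.2 CPM ± 20177 (SD, n = 3). Sdc1 and Jchain were not: antibody-secreting cells averaged 338 CPM of Sdc1, against 8.27 CPM in the labelled knockout and 54.0 CPM under the wild-type label, and 107061 CPM of Jchain. Nuggc was highest in the labelled knockout among these 4 groups.

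**Figure D5:**
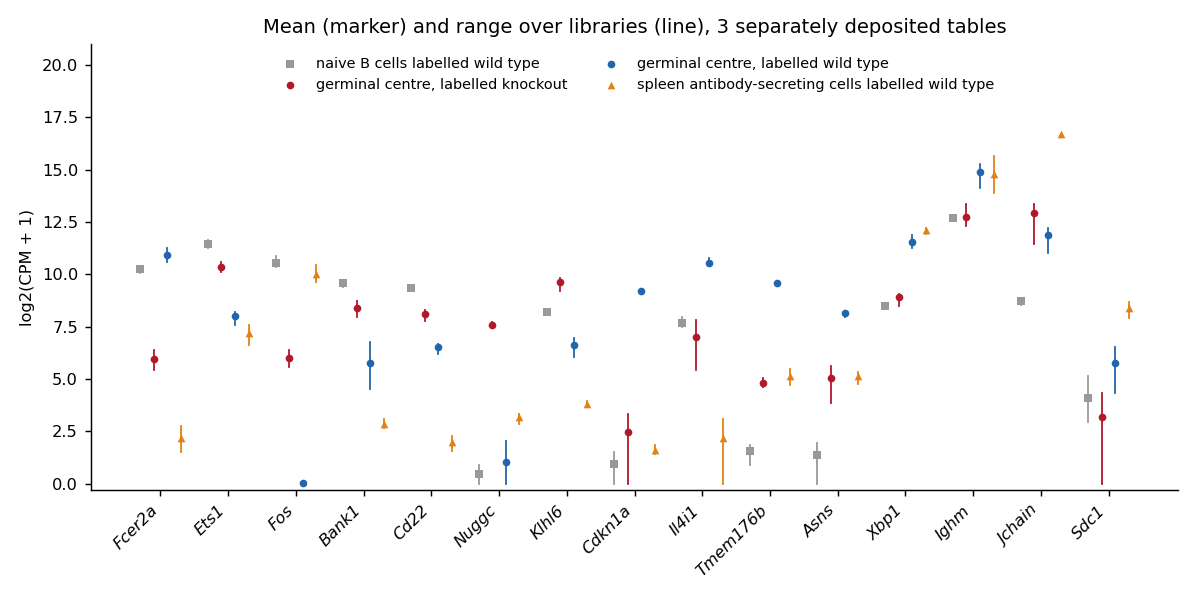
Levels of 15 genes on a log2(CPM + 1) scale in naive B cells (grey), germinal centre libraries labelled knockout (red) and labelled wild type (blue) and spleen antibody-secreting cells (orange), with markers at the log2 of the mean plus 1 and lines over the range of libraries, from 3 tables deposited separately. Ets1, Bank1 and Cd22 of the labelled knockout lie between naive B cells and the labelled wild type, whereas Cdkn1a, Il4i1, Tmem176b and Asns are highest under the wild-type label.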

How the data were processed

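RNA was measured in sorted germinal centre B cells, 4 libraries labelled knockout and 3 labelled wild type. The authors deposited these values under the name normalized counts. After a constant of 0.0001, present in every value, was subtracted, each column summed to 1e+06, so the deposited values are treated as CPM. STAR and mm10 are named per the submitters' processing notes, while for the counting tool, annotation and strand setting the sources used here give nothing. Depth was estimated from the smallest step between low values, and 61.5% to 67.8% of values were whole reads within 0.02, so no count test was run.

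Testing used limma 3.58.1 (R 4.3.3) on log2(CPM + 1) for genes averaging 10 CPM or more, with an intensity trend and no covariate, and p-values were Benjamini-Hochberg adjusted over all tested genes. Fold changes on this scale understate the change of low genes. Genes listed at 0 in a whole group are given without a fold. The procedure was tested on simulated data, where it missed most of the smaller changes, so a gene not called is not shown to be unchanged. Promoters were searched for 5 elements, on both strands. Lists were described by counts and medians. Promoters came from RefSeq (GRCm38.p6) and gene positions from GENCODE M21. Tables were handled in Python 3.11.15 with pandas 2.3.3.

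Genes were named by rule: the 15 called genes in each direction with the largest fold change, the largest difference in mean CPM and the smallest p, up to 6 called genes in each direction and 4 not called from each list, and a fixed set of identity genes. Exceptions are stated. The members and lists were chosen with earlier results of these data known. Alternatives covered the pseudocount, the level filter, scaling, the variance model, the threshold and leaving out libraries, and the list counts under them were added after seeing the data. Replicate numbers did not pair the libraries. Replicates carry the numbers of the sample titles, which for 2 wild-type libraries differ from the numbers in the column names. Some named genes that the rule would include are not reported here.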

Additional observations from a re-analysis of the deposited data

Results flagged for a closer look

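Some values stood apart from the other 3 libraries labelled knockout by a Dixon gap test, which chance passes in about 1 of 20 groups. Labelled-knockout replicate 1 had the only Ccl22 signal, 10.9 CPM, the lowest Igha, 249 CPM, and the highest summed erythroid list, 3194 CPM. Labelled-knockout replicate 2 had the highest Cd3e, 60.8 CPM, the highest summed T cell list, 3757 CPM, and the highest B2m, 3216 CPM. Labelled-knockout replicate 4 had the highest Ifit1, 85.8 CPM, Ifit3, 117 CPM, and Ighg1, 3430 CPM. The causes were not tested.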

How the results depend on the processing

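The share of tested genes called was lower without any 1 wild-type library than without any 1 knockout library. It ran from 7.07% to 13.3% with single libraries left out (5.01% to 7.87% higher and 2.06% to 5.47% lower). Leaving out knockout replicate 1 together with wild-type replicate 3 gave 5.13% (3.46% higher and 1.67% lower), a variance prior with no intensity trend gave 8.67% (5.35% higher and 3.32% lower), a threshold of 0.01 on the adjusted p gave 6.09% (4.01% higher and 2.08% lower), and a test against a log2 fold change of 1 gave 2.76% (1.71% higher and 1.04% lower). Fewer samples and stricter criteria on p or fold lower these shares by construction, and the cause under the untrended prior was not tested. The level filter set the share too: it was 27.2% (17.1% higher and 10.1% lower) of 3786 genes at a mean of 50 CPM or more, 8.61% (4.87% higher and 3.74% lower) at 1 CPM or more and 5.69% (3.16% higher and 2.54% lower) of all 17939 genes, because the number tested changed more than the number called. Weighting the samples raised it to 16.7% (10.2% higher and 6.52% lower). A list's share is to be read against the share under the same filter. Of 91 called genes named in the text, none changed sign in any setting where tested, 79 kept their call with each library left out in turn where tested, and 49 kept it in every setting run. Ighg1, not called, ran from −0.32 (without knockout replicate 4) to 0.60 with single libraries left out and was −0.32 with the replicate block, and the cause was not tested. Replicate numbers are only names here: deviations of same-numbered libraries correlated at 0.079, 0.00056 and 0.0078, and a fit with the replicate number as a block called 831 genes (9.75%). Depth and 3 or 4 libraries a group limit what low genes can show.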
